A study of Mus musculus with 6 samples.

Results

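Transcripts of 8 genes of the neurotrophin and GDNF systems, Bdnf, Ntf3, Gdnf, Ntrk2, Ntrk3, Ngfr, Sort1 and Gfra1, were followed in mouse prefrontal cortex. They were taken by gene symbol from 54429 rows of read counts per library, and all 8 symbols were present. Total lysate of the prefrontal cortex, taken at 6 to 8 weeks of age, was sequenced after ribosomal RNA had been removed. The GFP group (3 libraries) had received AAV9, an adeno-associated virus that transduces neurons, carrying green fluorescent protein. The Kmt5b shRNA group (3 libraries) had received the same virus with a hairpin that targets Kmt5b, a histone H4 lysine methyltransferase that is a risk gene for autism. The comparison asked which of these transcripts differ when Kmt5b is targeted in the cortex. The labels give all mice as C57BL6/J, whereas the design text gives a C57BL/6 x C3H cross and counts 3 knockdown and 2 control mice. Which mouse gave which library is not given, so p-values measure only the spread between these libraries, which may in part be technical.

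Neurotrophins are secreted growth factors of neurons. They are made as precursors, are cleaved by proprotein convertases, and act on Trk receptor tyrosine kinases. BDNF binds TrkB (Ntrk2), and NT-3 (Ntf3) binds mainly TrkC (Ntrk3). The p75 receptor (Ngfr) binds all neurotrophins, and with sortilin (Sort1) it forms a receptor for their uncleaved precursors. Sortilin also sorts pro-BDNF into the regulated secretory pathway. GDNF belongs to another growth factor family and binds GFRalpha1 (Gfra1), a lipid-anchored co-receptor that signals with the kinase RET or with NCAM. In the cortex BDNF is made mainly by excitatory neurons in response to activity, and TrkB is carried by neurons and, in a truncated form without the kinase domain, by astrocytes.

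The counts are sums over all transcripts of a gene, so they cannot tell apart the promoters of Bdnf or the full-length and truncated forms of Ntrk2 and Ntrk3. Bdnf has 7 annotated transcription starts in the RefSeq table of the mouse genome (GRCm38.p6), spread along chromosome 2. A pair of the 7 upstream windows of 250 bases is shown, because transcripts from all of these starts feed the single Bdnf count. Capitals mark TCACGTCA, a variant of the cyclic AMP response element, on either strand. It was found in the window of the third start, in none of the other 6, and in 0.35% of the 32851 windows of this length in the table. The full element TGACGTCA was in no Bdnf window and in 1.55% of all windows, and the E-box CACGTG was in no Bdnf window and in 6.02% of all windows. All motifs were searched on both strands, and the single match overlaps no other. A match describes the letters only.
Bdnf start 1, upstream window chr2:109674450-109674699, plus strand: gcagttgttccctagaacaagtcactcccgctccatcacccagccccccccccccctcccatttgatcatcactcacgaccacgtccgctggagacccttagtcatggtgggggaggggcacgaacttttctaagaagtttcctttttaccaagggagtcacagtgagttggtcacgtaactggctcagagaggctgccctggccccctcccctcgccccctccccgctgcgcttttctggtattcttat
Bdnf start 3, upstream window chr2:109692186-109692435, plus strand: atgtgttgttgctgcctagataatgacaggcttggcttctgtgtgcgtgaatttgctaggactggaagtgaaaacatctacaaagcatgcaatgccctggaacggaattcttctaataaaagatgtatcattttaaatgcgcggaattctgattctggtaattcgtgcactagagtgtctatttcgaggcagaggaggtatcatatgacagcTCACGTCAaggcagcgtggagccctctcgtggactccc
Windows were also found for Ntf3, Gdnf, Ntrk2, Ngfr and Gfra1. Ntrk3 and Sort1 had none.

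The libraries held between 29490771 counts (GFP replicate 2) and 74723284 counts (GFP replicate 3). Levels are given as CPM, each count divided by its TMM-scaled library size and put on the usual CPM scale. Kmt5b, the targeted gene, was at 79.7 to 86.5 CPM in the GFP libraries and at 63.9 to 80.3 CPM in the libraries labelled Kmt5b shRNA, so the ranges overlapped. The log2 fold change, here always Kmt5b shRNA minus GFP, came to -0.22 ± 0.10 for Kmt5b (SE, n = 3 a group, edgeR adjusted p = 0.303). Lower Kmt5b was thus not shown by the test, 1 library labelled Kmt5b shRNA lay within the GFP range, and every direction given here rests on the labels. The antisense gene Gm16066 overlaps exons of Kmt5b. Of 24419 genes tested by the edgeR quasi-likelihood test, 676 were called higher and 1390 lower in the Kmt5b shRNA libraries at a Benjamini-Hochberg adjusted p under 0.05. That is 8.46% of genes in either direction, 5.69% lower and 2.77% higher. A fit of 15778 protein-coding genes alone called 471 higher and 184 lower, so the balance of directions depended on which rows were kept. The part of reads shared between similar genes in these calls was not tested. Markers of excitatory cortical neurons summed to 2759 to 3357 CPM over the 6 libraries and markers of striatal neurons to 118 to 152 CPM.

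Gfra1, the GDNF co-receptor, was lower in the Kmt5b shRNA libraries, and was the only one of the 7 tested members that passed the test. The remaining 6 did not pass, and Gdnf was too low to be tested. The share of members called, 1 of 7, stands beside 8.46% of all genes called in either direction and 5.69% called lower. In the fit of protein-coding genes alone, 4.15% were called in either direction, and 184 of 15778 genes were called lower. Gfra1 was again the 1 member called there. In 4 of the 7 members the CPM ranges of the groups did not overlap, against 22.5% of all genes tested. Bdnf, Ntrk2 and Ntrk3 had every Kmt5b shRNA library above every GFP library, and Gfra1 had every Kmt5b shRNA library below. The median log2 fold change of the 7 members was 0.09, against -0.02 for all genes tested. The median size of change regardless of sign was 0.24 for the members and 0.19 for all genes.

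**Figure D1:**
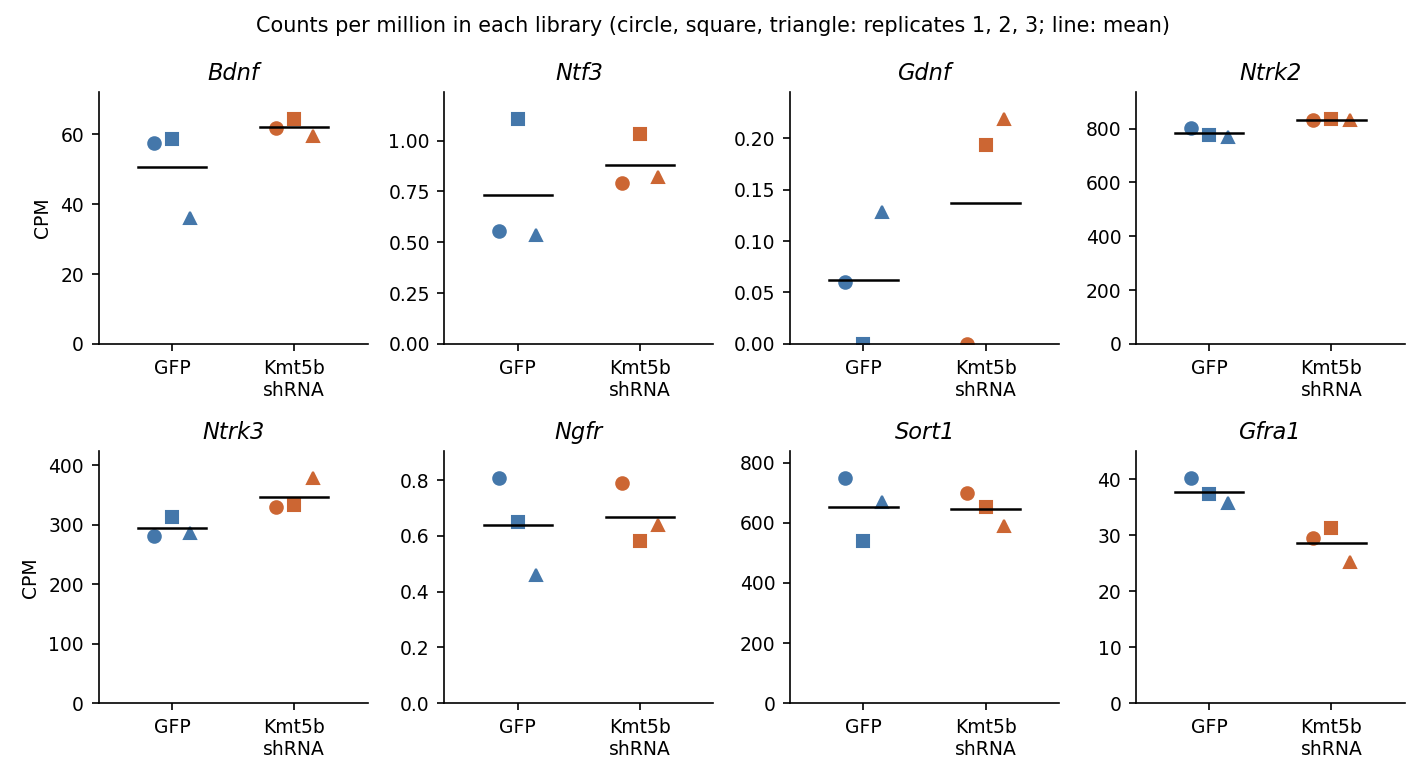
CPM (linear axis from 0) of each of the 8 genes in the 3 GFP and 3 Kmt5b shRNA libraries. Each point is 1 library (circle, square and triangle for replicates 1, 2 and 3) and lines are group means. Gfra1 lies at 35.7 to 40.2 CPM in GFP and 25.3 to 31.2 CPM in Kmt5b shRNA libraries, and Bdnf of GFP replicate 3, at 36.2 CPM, lies apart from the other 5 libraries.

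Among the ligands, Bdnf lies on chromosome 2 from 109674700 to 109727007 on the plus strand (GRCm38, GENCODE M21). Its counts were 3843, 1805 and 2829 in GFP replicates 1 to 3 against 3523, 2992 and 3270 in Kmt5b shRNA replicates 1 to 3. Levels were 57.5, 58.7 and 36.2 CPM with GFP and 61.9, 64.4 and 59.6 CPM with Kmt5b shRNA. The groups did not overlap, but the GFP libraries differed among themselves far more than the Kmt5b shRNA libraries, because replicate 3 was low. The means were 50.8 ± 12.7 and 62.0 ± 2.39 CPM (SD, n = 3 each). The log2 fold change was 0.29 ± 0.16 (SE) with an edgeR adjusted p of 0.397, and a two-sided exact permutation test gave p = 0.1, the smallest that 3 against 3 libraries allow. The interval of the change ran from -3.51% to 54.8% (95%). Without GFP replicate 3 the log2 fold change of Bdnf was 0.09 (edgeR adjusted p = 0.808). In that library the 25 genes of the activity and Trk response list also summed to the least, 1335 CPM, against 1697 to 2179 CPM in the other 5, and the part of this in the Bdnf value was not tested. Such a sum weighs abundant genes most, and not all genes of the list were lowest there. Arc was lowest in Kmt5b shRNA replicate 2, where Bdnf was highest.

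Ntf3, which encodes NT-3, lies on chromosome 6 from 126101412 to 126166910 on the minus strand. It was scarce, at 37, 34 and 42 counts in the GFP and 45, 48 and 45 counts in the Kmt5b shRNA libraries. That was 0.553, 1.11 and 0.537 CPM against 0.791, 1.03 and 0.820 CPM. The least deeply sequenced library, GFP replicate 2, was the highest of all 6 and the groups overlapped. The log2 fold change of 0.32 ± 0.37 (SE, edgeR adjusted p = 0.774) had a 95% interval from -0.48 to 1.11, or from -28.3% to 116%. The Ntf3 value turned on single libraries: it was 0.69 without GFP replicate 2, and 0.15, 0.13 and 0.19 on dropping GFP replicate 1, GFP replicate 3 or Kmt5b shRNA replicate 2.

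Gdnf, on chromosome 15 from 7810846 to 7837575, was at the edge of detection. It had 4, 0 and 10 counts with GFP and 0, 9 and 12 counts with Kmt5b shRNA. Each group thus held 1 library with no count, which allows up to 0.0976 CPM in GFP replicate 2 and up to 0.0527 CPM in Kmt5b shRNA replicate 1 (3 counts, counting error only). These limits would be higher if both mates of a read pair were counted. The highest value was 0.219 CPM, in Kmt5b shRNA replicate 3. Gdnf did not reach the minimum count for testing, and no difference was detectable at this depth.

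The receptor Ntrk2, encoding TrkB, lies on chromosome 13 from 58806569 to 59133970. Its level was 802, 776 and 771 CPM with GFP and 830.5, 836 and 831 CPM with Kmt5b shRNA. The 3 Kmt5b shRNA libraries lay close together and above all GFP libraries, and the step was small beside the level. The means were 783 ± 16.7 and 832.5 ± 2.97 CPM (SD, n = 3 each), which gave 0.09 ± 0.10 on the log2 scale (SE, edgeR adjusted p = 0.743). The 95% interval ran from -7.69% to 22.5%.

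Ntrk3, encoding TrkC, lies on chromosome 7 from 78175959 to 78738012. It was at 281, 313 and 286.5 CPM with GFP and at 330.4, 332 and 378 CPM with Kmt5b shRNA. The groups did not overlap, and Kmt5b shRNA replicate 3 was the highest. The log2 fold change was 0.24 ± 0.10 (SE), with an unadjusted edgeR p of 0.0306 and an adjusted p of 0.210. It was thus a difference that did not pass once all 24419 genes were taken into account. With each library left out in turn it lay between 0.19 and 0.30.

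Ngfr, the p75 receptor, lies on chromosome 11 from 95568818 to 95587735. It was nearly absent, at 54, 20 and 36 counts in the GFP and 45, 27 and 35 counts in the Kmt5b shRNA libraries. The CPM were 0.807, 0.651 and 0.460 against 0.791, 0.581 and 0.638. The ranges overlapped throughout, and the log2 fold change of 0.08 ± 0.37 (SE, edgeR adjusted p = 0.958) had a 95% interval from -0.71 to 0.86.

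Sort1, encoding sortilin, lies on chromosome 3 from 108284082 to 108361511. With GFP it was at 748, 539.6 and 668.5 CPM, and with Kmt5b shRNA at 698, 652 and 590.3 CPM. The Kmt5b shRNA values lay inside the GFP range. With a log2 fold change of -0.01 ± 0.12 (SE, edgeR adjusted p = 0.982), the 95% interval ran from -17.5% to 19.2%. Sort1 had the widest spread between GFP libraries of the abundant receptors, with an SD of 105.3 CPM around 652 CPM.

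Gfra1 lies on chromosome 19 from 58235604 to 58455909 on the minus strand. It had 2688, 1146 and 2792 counts with GFP and 1682, 1452 and 1385 counts with Kmt5b shRNA. The levels were 40.2, 37.3 and 35.7 CPM against 29.6, 31.2 and 25.3 CPM. The lowest GFP library was above the highest Kmt5b shRNA library, and the means were 37.7 ± 2.28 and 28.7 ± 3.09 CPM (SD, n = 3 each). This gave -0.40 ± 0.11 on the log2 scale (SE, edgeR adjusted p = 0.0299), a change of -24.0% with a 95% interval from -35.1% to -10.9%. The two-sided exact permutation p of 0.1 is the smallest possible. When each library was dropped in turn, the Gfra1 call held in 2 of 6 fits. Dropping GFP replicate 1 or 2 gave an edgeR adjusted p of 0.0925 or 0.0682. Dropping Kmt5b shRNA replicate 1 or 3 gave 0.0946 or 0.165, the latter with a log2 fold change of -0.30. A further fit kept the 12790 tested protein-coding genes whose longest transcript has no match of 200 bases at 90% identity to another protein-coding gene or a pseudogene. Shorter matches and matches to antisense genes were allowed. In this fit of genes with no long match, Gfra1 had -0.40 (edgeR adjusted p = 0.0669).

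Some marker genes of other cell types were also lower, while others in the same lists were not. Astrocyte markers summed to 5062 to 5188 CPM in the GFP and 4340 to 4928 CPM in the Kmt5b shRNA libraries, with 3 of 10 called lower, and the sums did not overlap. These were the water channel Aqp4 and the gap junction genes Gja1 and Gjb6, with log2 fold changes of -0.64, -0.51 and -0.63 (edgeR adjusted p = 0.00178, 0.0114 and 0.0334). Of the other 7 astrocyte markers, 2 had log2 fold changes above 0, Gfap at 0.39 and Fgfr3 at 0.13 (edgeR adjusted p = 0.545 and 0.553). The gene Slc1a2 made up most of the astrocyte sum, at 2784 to 2988 CPM with GFP and 2417 to 2884 CPM with Kmt5b shRNA. Its groups overlapped and it was not called (edgeR adjusted p = 0.554). The markers named here were chosen after their values were seen. Inhibitory neuron markers summed to 627 to 718 CPM against 624 to 660.5 CPM, with 2 of 8 called lower. Those 2 were Pvalb, a calcium buffer of fast-spiking interneurons, and the peptide Npy, with log2 fold changes of -0.58 and -0.46 (edgeR adjusted p = 0.00329 and 0.0317). In the same list 3 of 8 markers were above 0. Of these, Vip at 0.27 and Lhx6 at 0.26 had every Kmt5b shRNA library above every GFP library and did not pass (edgeR adjusted p = 0.149 and 0.279). Oligodendrocyte markers summed to 4520, 2929 and 3236 CPM with GFP and to 1617, 2950 and 3416 CPM with Kmt5b shRNA. Kmt5b shRNA replicate 1 stood apart, the other 2 lay within the GFP range, and all 10 log2 fold changes were below 0. Of these 10, 0 were called by edgeR, 1 had an unadjusted p under 0.05, and DESeq2 and limma each called 1 lower. No marker in any of these 3 lists was at 0 in all libraries. The part of these cell types in the Gfra1 value was not tested, and in bulk tissue fewer cells of a type and less RNA per cell cannot be told apart.

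**Figure D2:**
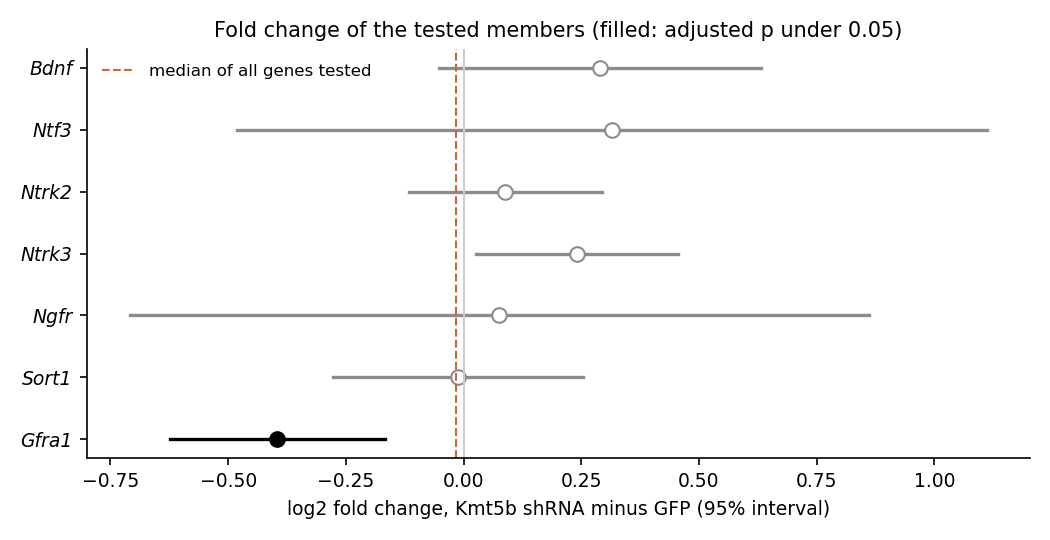
Log2 fold change (Kmt5b shRNA minus GFP, horizontal axis) of the 7 tested members, with 95% intervals from the edgeR fit. The filled point is Gfra1 at -0.40, the member with an adjusted p under 0.05, open points did not pass, and the dashed line is the median of all genes tested, -0.02.

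Antisense genes overlap the exons of 3 members: Gm45346 overlaps 14.4% of the exon bases of Bdnf, Gm12523 4.47% of those of Sort1, and Gm16277 7.60% of those of Gfra1. Gm45346 had at most 13 counts, Gm12523 at most 17 and Gm16277 at most 6 in any library. The kit keeps strand, but whether the counting used it is not given in the sources used here, so reads of a gene and its antisense partner may not have been told apart. No member matched another protein-coding gene or a pseudogene over 200 bases at 90% identity in its longest transcript. Ntrk3 shared stretches of at least 100 bases with 12 other genes, so a small part of its reads may have more than 1 origin.

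Per length of merged exons, the members spanned several orders of magnitude, and their means came in the same order in both groups. In the GFP libraries Sort1 stood highest at 86.2 ± 13.9 CPM per kilobase, followed by Ntrk2 at 40.6 ± 0.863 (SD, n = 3 each). The receptor Ntrk3 followed at 9.73 ± 0.566, the ligand Bdnf at 8.17 ± 2.04 and Gfra1 at 6.89 ± 0.416 CPM per kilobase. Over all 6 libraries the ranges of Ntrk3 (9.32 to 12.5) and Bdnf (5.82 to 10.4) overlapped, as did those of Bdnf and Gfra1 (4.61 to 7.34). Ntf3 (0.313 to 0.645), Ngfr (0.134 to 0.234) and Gdnf (0 to 0.0595) came far below, and their ranges did not overlap with each other. Merged exons include those of all annotated isoforms, so a gene that uses only a short isoform is understated on this scale.

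**Figure D3:**
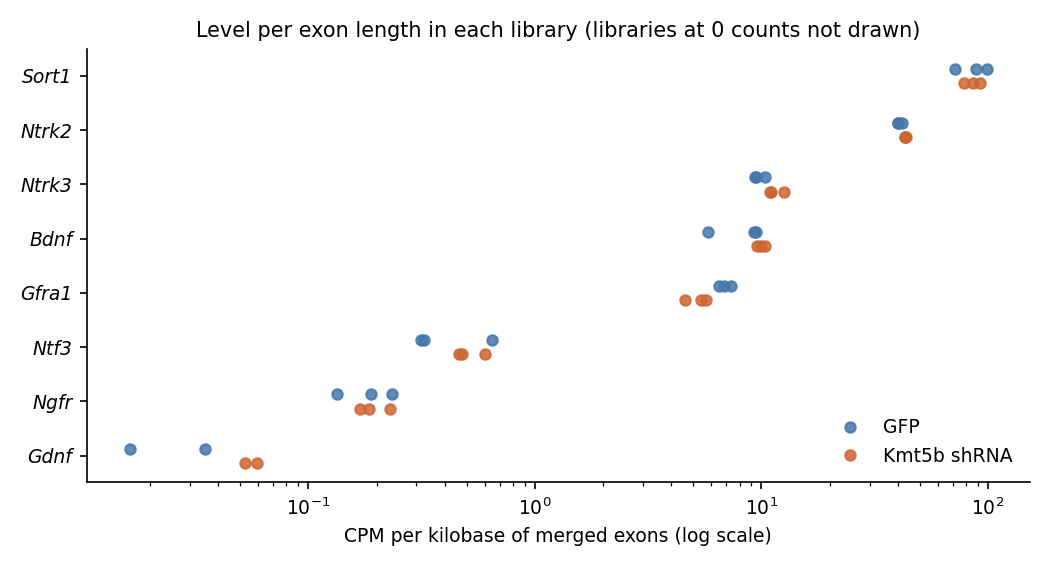
CPM per kilobase of merged exons (log axis) of the 8 members, with 1 point per library (blue for GFP, orange for Kmt5b shRNA), in the order of the GFP mean. Sort1 and Ntrk2 stand apart at 40.0 CPM per kilobase or more, Ntrk3, Bdnf and Gfra1 lie close together, and Ntf3, Ngfr and Gdnf lie below 1. The 2 libraries with no Gdnf count are not drawn.

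Beyond the 8 members, 133 genes of the same pathways were examined in 7 lists that include the members, and 129 were tested. Of these, 6 were called higher and 1, Gfra1, lower. That is 4.65% higher and 0.775% lower, against 2.77% and 5.69% of all genes, and 5.43% against 8.46% in either direction. In the fit of protein-coding genes alone, 3 were called higher (2.33%) and 1 lower (0.775%), which is 3.10% against 4.15% of the genes in that fit. Of all 15778 genes in that fit, 471 were called higher and 184 lower, so most calls there were higher, as in the lists. The median log2 fold change of the 129 tested pathway genes was 0.07 in the main fit of all genes. Counts at an unadjusted edgeR p under 0.05, given below by list, stand beside 4239 of all 24419 genes tested, in either direction. The lists were written with earlier results of these data known.

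Of the ligand list, 0 of 7 tested genes were called by edgeR, 0 had an unadjusted p under 0.05, and DESeq2 and limma also called 0. Persephin (Pspn), a GDNF relative, had the smallest p among those below 0, with a log2 fold change of -0.34 ± 0.47 (SE, edgeR adjusted p = 0.809). The ligands other than Bdnf were scarce: over the list the summed CPM was 39.8 to 63.2 in the GFP and 64.0 to 68.8 in the Kmt5b shRNA libraries, and Bdnf made up most of it. Of 15 receptors, 13 were tested, and Gfra1 was the one called. Gfra3, the artemin co-receptor, had 0 counts in all 6 libraries. Gfra1's partners were named after their values were seen. The kinase Ret averaged 4.21 ± 1.22 CPM with GFP and 4.99 ± 0.494 CPM with Kmt5b shRNA (SD, n = 3 each), with a log2 fold change of 0.26 and an edgeR adjusted p of 0.641. The adhesion molecule Ncam1, which can also carry GDNF signals, had -0.03 (edgeR adjusted p = 0.921). The neurturin receptor Gfra2 had 0.22 (edgeR adjusted p = 0.294).

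Lingo1, which forms a complex with p75 and the Nogo receptor, was higher in the Kmt5b shRNA libraries, at 316, 248 and 300.2 CPM against 220.5, 194 and 197 CPM in the GFP libraries. The groups did not overlap. Lingo1 differed by 0.50 ± 0.11 on the log2 scale (SE, edgeR adjusted p = 0.00745). The call was lost, at 0.0772, when Kmt5b shRNA replicate 1 was dropped. Lingo1 was the only one of 10 p75 partners called, and 2 were higher at an unadjusted edgeR p under 0.05. Tnfrsf19 (TROY), a relative of p75, had the smallest p in the other direction, with -0.22 ± 0.10 (SE, edgeR adjusted p = 0.289).

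Of 13 tested genes that process proneurotrophins, the convertase Pcsk5 was called higher, at 33.0, 32.0 and 38.3 CPM against 27.6, 26.1 and 25.7 CPM. All 3 Kmt5b shRNA libraries lay above the GFP libraries. The difference was 0.38 ± 0.10 on the log2 scale (SE, edgeR adjusted p = 0.0314). The Pcsk5 call held in 2 of 6 fits that drop a library, lost without any of GFP replicates 2 and 3 and Kmt5b shRNA replicates 1 and 3 (edgeR adjusted p up to 0.145). It held in 7 of the other 10 settings and was lost in all 3 fits of gene subsets (up to 0.101). Carboxypeptidase E (Cpe), which trims the cleaved peptides and binds pro-BDNF, had -0.28 ± 0.13 (SE, edgeR adjusted p = 0.277). In this list DESeq2 called 3 higher and limma 1 higher. At an unadjusted edgeR p under 0.05, 3 were higher and 1 lower.

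Among 43 adaptors and kinases downstream of Trk receptors, 3 were called higher by edgeR. Of those with a lower value 0 were called by edgeR, DESeq2 or limma, and 0 had an unadjusted p under 0.05. DESeq2 and limma also called 3 higher each, and 8 were higher at an unadjusted edgeR p under 0.05. The list median was 0.08. The docking protein Irs1 was at 38.9, 34.4 and 41.4 CPM against 24.97, 30.6 and 24.7 CPM, with a log2 fold change of 0.52 ± 0.11 (SE, edgeR adjusted p = 0.0072), and passed in all 15 other settings that tested it. The GTPase Nras had 0.42 ± 0.12 (SE, edgeR adjusted p = 0.0365) but that call held in 1 of 6 fits that drop a library, the one without GFP replicate 1. It was at 0.123 without GFP replicate 2, and was lost in all 3 fits of gene subsets (up to 0.103). The ribosomal S6 kinase Rps6ka1 had the smallest p of those below 0, with -0.28 ± 0.15 (SE, edgeR adjusted p = 0.362).

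Of 20 regulators of Bdnf transcription 0 were called by edgeR, DESeq2 or limma, and 0 had an unadjusted p under 0.05. The median log2 fold change was 0.05. The histone deacetylase Hdac5 had 0.19 ± 0.10 and the repressor Rest -0.28 ± 0.13 (SE, edgeR adjusted p = 0.347 and 0.314). Of 25 activity and Trk response genes 1 was called by edgeR, Inhba, which encodes an activin subunit. It was at 19.9, 19.3 and 21.6 CPM against 14.6, 16.5 and 11.1 CPM, a log2 fold change of 0.54 ± 0.14 (SE, edgeR adjusted p = 0.0226). The Inhba call held in 3 of 6 fits that drop a library, lost on dropping GFP replicate 3 (0.105) or Kmt5b shRNA replicate 1 or 3 (0.0702 and 0.0678). It was lost in all 3 fits of gene subsets (up to 0.0908). The phosphatase gene Dusp1 had -0.79 ± 0.23 (SE) and did not pass by edgeR (adjusted p = 0.0874). It passed by edgeR when GFP replicate 3 (0.0198) or Kmt5b shRNA replicate 1 (0.0163) was dropped, by DESeq2 (0.00135), by limma (0.0401) and with no filter on low counts (2.99e-08). The list median was -0.06, with 11 of 25 genes above 0. DESeq2 called 3 of the 25 higher and 1 lower, and limma called 1 higher and 1 lower. At an unadjusted edgeR p under 0.05, 4 were higher and 2 lower.

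**Figure D4:**
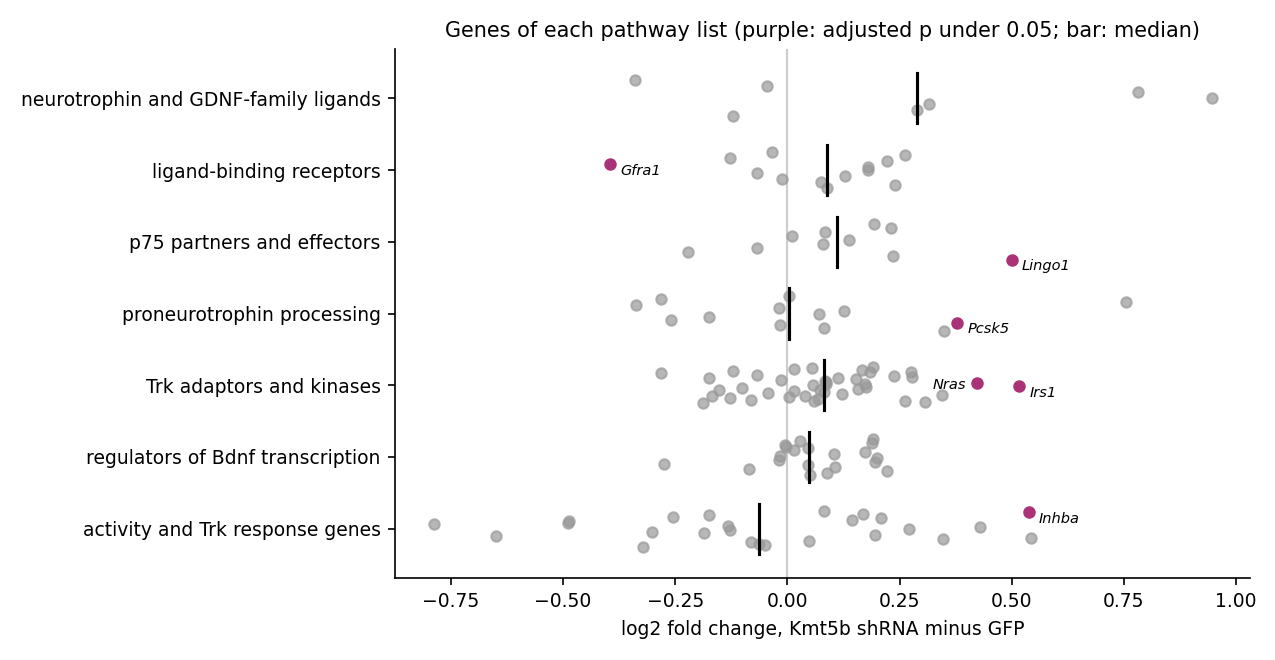
Log2 fold change (Kmt5b shRNA minus GFP, horizontal axis) of the tested genes of each of the 7 pathway lists, with 1 point per gene and a bar at the list median. Purple points with names are 6 genes with an edgeR adjusted p under 0.05, of which Gfra1 lies below 0, and 1 called gene of the Trk adaptors is not drawn.

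**Figure D5:**
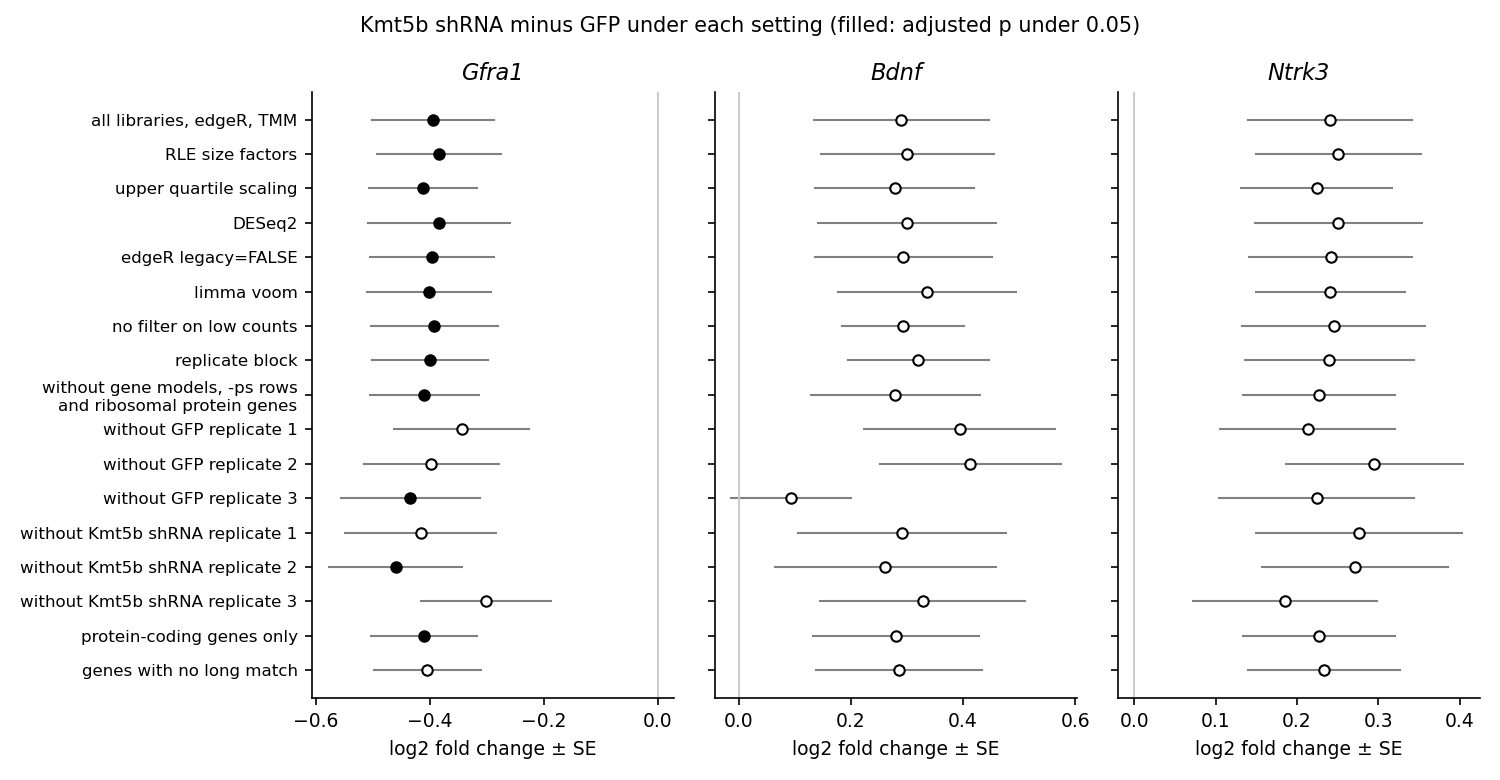
Log2 fold change with its SE (horizontal axis) of Gfra1, Bdnf and Ntrk3 under each setting (rows), filled where the adjusted p was under 0.05. Gfra1 stays between -0.46 and -0.30 and is open, not called, in 5 rows, and Bdnf drops to 0.09 without GFP replicate 3.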

How the data were processed

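The members and gene lists were chosen with earlier results of these data known. The authors deposited raw counts per gene symbol, 1 file per library. The kit was a TruSeq stranded total RNA kit with Ribo-zero, per the labels' protocols, which also name Cutadapt for trimming and TopHat2 for alignment to RefSeq mRNAs. STAR, featureCounts, DESeq2 and mm10 appear in the list of tools and builds, per the submitters' processing notes. Which aligner made the counts is not given in the sources used here. Over all libraries 5823 values were 1, 14878 were 2 and 3608 were 3, an excess of even values, and whether both mates of a pair were counted is not given in the sources used here. Limits for a count of 0 cover counting error only, and would be higher if both mates of a pair were counted.

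The test was edgeR 4.0.16 (R 4.3.3), run over all rows kept by filterByExpr, with TMM scaling and the robust quasi-likelihood fit (legacy=TRUE) on all 6 libraries, and Benjamini-Hochberg adjustment over 24419 genes. Standard errors were derived from the F statistic, and intervals use the total degrees of freedom of the fit. Lengths, positions and overlaps come from GENCODE M21, promoter windows from RefSeq. Sequence sharing was found with minimap2 2.31-r1302 and BLAST+ 2.17.0. The named genes are the members, Kmt5b, the called genes of each pathway list, and otherwise the tested gene of smallest p in each direction. Alternatives were DESeq2 1.42.0, limma 3.58.1 (voom), other scalings, no filter, a replicate block, gene subsets and each library left out. Replicates of a group differed by more than sampling noise (chi-square per gene of 18.2 to 45.0), so none was counted as the same library sequenced again. These values cannot tell whether 2 libraries came from the same mouse. Of the genes this rule names, 1 of the Trk adaptors is not reported here.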

Additional observations from a re-analysis of the deposited data

How the results depend on the processing

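With each library left out in turn, the number of genes called ranged from 1696 to 2332, the number of members called from 0 to 1, the members' median log2 fold change from 0.078 to 0.17, the Gfra1 log2 fold change from -0.46 to -0.30, and the number of pathway genes called from 3 to 10 (7 with all libraries). Leaving out 1 library turned the sign of Sort1, which ranged from -0.12 to 0.10, and of Ngfr, which ranged from -0.13 to 0.31, so neither has a direction. Genes called fell from 2066 to 550 (367 higher, 183 lower) without numbered gene models, -ps rows and ribosomal protein genes. They numbered 655 (471 higher, 184 lower) among protein-coding genes and 177 (119 higher, 58 lower) among genes with no long match to another protein-coding gene or pseudogene (200 bases at 90% identity). These subsets test fewer genes and leave out most lower calls. Pathway genes called were 4, 4 and 2 in the same 3 fits, out of 125, 129 and 118 tested. They were 12 by DESeq2 and 14 with no filter on low counts. The fit without ribosomal protein genes chose them by symbol, which also removed genes of ribosomal S6 kinases such as Rps6ka1. The last 2 subset fits were chosen after seeing the data. Members called were 0 among genes with no long match, where Gfra1 had -0.40 (edgeR adjusted p = 0.0669), and 2 had an unadjusted p under 0.05 in the fit of all genes. In the other 9 settings that keep all libraries Gfra1 passed. Its adjusted p over all 16 alternatives ranged from 0.00808 to 0.165. Whether the replicate numbers pair the libraries is not known. Same-numbered libraries had correlations of deviations from group means of -0.034, -0.00298 and 0.188 across genes, and differently numbered ones had -0.176 to 0.174. Deviations from a mean of 3 libraries are tied to each other, so these values cannot decide it. With the replicate block 2211 genes and 1 member were called, and Gfra1 had -0.40 (edgeR adjusted p = 0.0256). The block changed no member's call, but Dusp1 passed with it (edgeR adjusted p = 0.00047). Depth limits Gdnf, Ngfr and Ntf3 the most.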

Other observations

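The genes whose log2 CPM followed Bdnf most closely over the 6 libraries were Btbd11, Zfp125 and Map1lc3b, with Pearson r of 0.993, 0.989 and 0.989. They were ranked among 13625 genes with an average log2 CPM of at least 1, with numbered gene models left out. In this ranking 201 genes had an r above 0.9, and all share the same 6 libraries. In each of the 3 genes GFP replicate 3 was the lowest library, as for Bdnf. Map1lc3b, an autophagy protein, was at 115 CPM there against 149.8 to 162 CPM in the other 5. The zinc finger gene Zfp125 was at 0.971 CPM there against 6.77 to 8.46 CPM. Btbd11 was at 27.6 CPM against 29.7 to 30.3 CPM, so it varied far less than Bdnf.

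Markers of microglia summed to 637 to 876 CPM in the GFP and 634 to 878 CPM in the Kmt5b shRNA libraries, and those of endothelial cells to 255 to 278 and 246 to 282 CPM, with 0 of 8 genes called by edgeR, DESeq2 or limma in each list. At an unadjusted p under 0.05 there were 0 microglial genes and 1 endothelial gene. Of 8 pericyte and fibroblast markers edgeR called 0, 1 had an unadjusted p under 0.05, and DESeq2 and limma each called 1 lower. Of 8 oligodendrocyte precursor markers 1 was called higher, the transcription factor Olig2 (named after its value was seen), with a log2 fold change of 0.54 ± 0.14 (SE, edgeR adjusted p = 0.0211). In this list 5 of 8 were above 0, and Sox10, Gpr17 and Neu4 were below 0, at -0.01, -0.11 and -0.18. The list summed to 226.8 to 253.5 CPM in the GFP and 237.8 to 277.4 CPM in the Kmt5b shRNA libraries, so the sums overlapped.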
